A study of Danio rerio with 18 samples.

Results

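The comparison described here is how much the response to a high-fat meal differed from the response to a low-fat meal, 4 h after feeding, in the digestive organs of zebrafish larvae. All larvae were wild type of the AB strain at 6.5 days post fertilization, and the intestine, liver and pancreas were dissected together. The high-fat cohort was fed an emulsion of 5% egg yolk and the low-fat cohort 10% egg white. Each cohort had its own unfed control larvae, and larvae were also taken at 1 h. There were 3 samples in each of 4 groups (unfed and 4 h after each meal), 12 of the 18 samples of the series, and each sample pooled organs of 10 larvae. The feeds differ in more than fat, since yolk and egg white also differ in their proteins and in cholesterol. The effect of the meal and that of the cohort and its unfed pools cannot be told apart at 4 h.

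For every gene the log2 fold change at 4 h after the low-fat meal was subtracted from that after the high-fat meal, each taken against the unfed larvae of its own cohort. A positive difference means a higher response to the high-fat meal. Of 21227 gene symbols, 12828 had an average of at least 0 log2 CPM (counts scaled to library size) in their most abundant transcript and form the comparison. The fold changes are those of the authors' deposited table, which holds no column of single samples, so the values of single pools are not shown and the depth behind each value is unknown. The error of a difference (SE) was derived from the authors' p-values and lay between 0.506 and 0.576 on the log2 scale. A gene was called when the Benjamini-Hochberg adjusted p of a two-sided normal test on this error, over all 12828 genes, was under 0.05.

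Digested fat enters enterocytes as fatty acids and monoacylglycerol, is rebuilt into triglyceride, and is either kept in lipid droplets in the cytosol or exported on lipoproteins that carry apolipoprotein B. Fatty acids are also ligands of the PPAR nuclear receptors, which in vertebrates induce genes of fatty acid oxidation. Sterols taken up with a meal repress the genes of cholesterol synthesis through the SREBP pathway, and heat shock genes respond to unfolded protein in the cytosol.

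The difference between the meals was called in 68 genes, 31 with a higher response to the high-fat meal (0.242% of genes tested) and 37 with a lower one (0.288%). Called or not, 6024 of the 12828 differences (46.96%) lay above 0 and 6804 below. These shares over all genes are the base for the counts of list members below. Among the largest higher differences were those of nr0b2b, the lipid droplet genes plin2 and g0s2, the chemokine gene zgc:194112 and the oxidation gene cpt1b. Among the largest lower ones were those of the heat shock genes serpinh1b and hsp90aa1.2, overlapping rows of hsp70 copies and the interferon-induced cmpk2. In the authors' deposited table, 95 genes were called higher 4 h into the high-fat response (0.741%) and 79 lower (0.616%), against 56 higher (0.437%) and 1 lower (0.0078%) after the low-fat meal. The 1 gene called lower after the low-fat meal in the authors' deposited table was paics, an enzyme of purine synthesis (-1.75), whose difference between the meals was 1.55 and was not called (adjusted p = 0.25). It was looked up after its value was seen.

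The 2 sides of the comparison were built differently. Of the 31 higher genes, the authors' deposited table called 27 after the high-fat meal alone, 0 after the low-fat meal alone, 2 after both and 2 after neither. Of the 37 lower genes it called 17 after the high-fat meal alone, 13 after the low-fat meal alone, 4 after both and 3 after neither. The high-fat response was the larger in size in 31 of 31 higher genes and in 18 of 37 lower genes. In the plot of both responses, the higher genes therefore lie nearer 0 on the low-fat axis than on the high-fat axis. The lower genes spread from genes reduced after the high-fat meal to genes raised after the low-fat meal, and some show both. Called or not, the 2 responses had opposite signs in 23 of the 31 higher genes and in 26 of the 37 lower genes. Only tcap was called in opposite directions after the 2 meals in the authors' deposited table. The 68 genes lie at 64 separate positions, since some rows overlap.

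**Figure D1:**
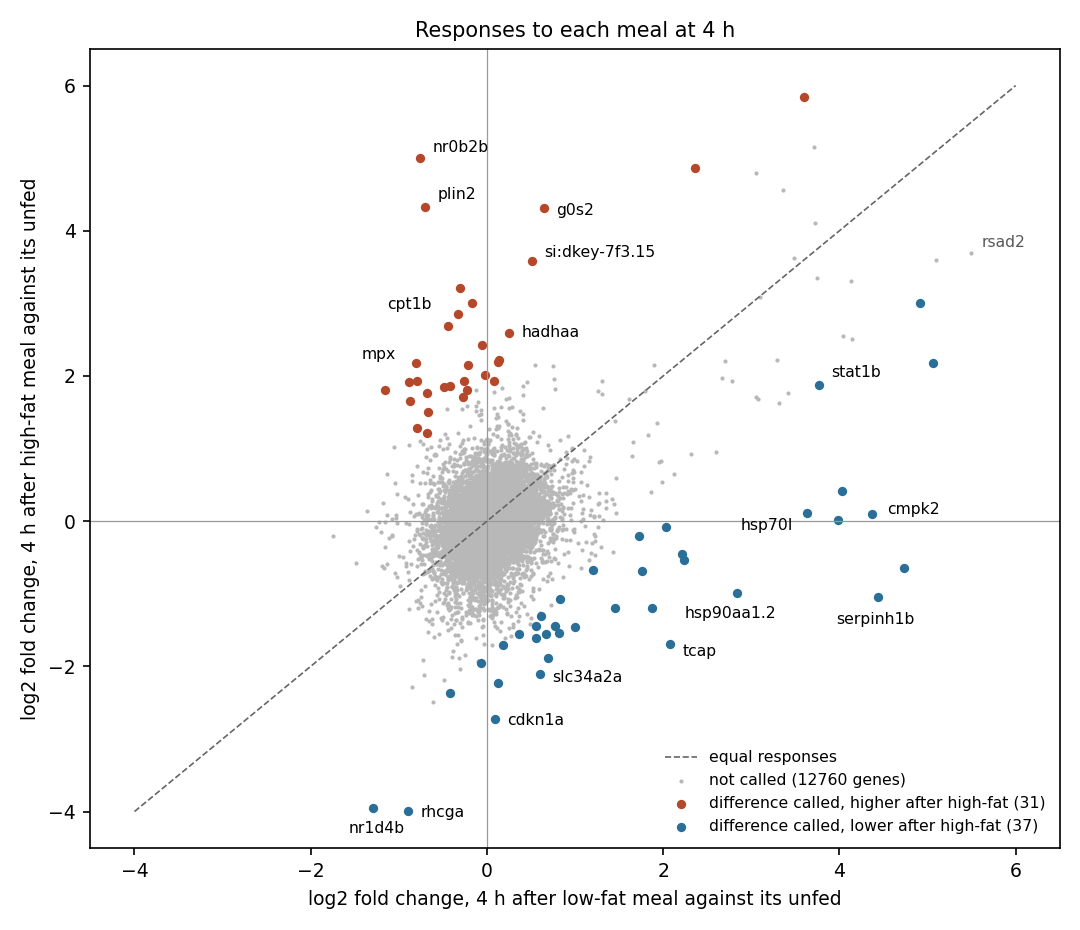
Log2 fold change at 4 h after the high-fat meal (vertical) against that after the low-fat meal (horizontal), each against unfed larvae of its own cohort, for 12828 genes. The 31 genes called higher lie above the dashed line of equal responses and the 37 called lower lie below it, and rsad2, high after both meals, was not called.

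Lipid droplet genes gave one of the largest differences. The authors' deposited table placed plin2, the coat protein of lipid droplets, at 4.33 after the high-fat meal (adjusted p = 1.8e-21) and at -0.70 after the low-fat meal (adjusted p = 1). The difference was 5.03 ± 0.506 (SE), or 32.7-fold (95% interval of the log2 value 4.04 to 6.02, adjusted p = 9.3e-20). Its transcript lies at chr15:16049488-16067837 of build Zv9 and averaged 74.6 CPM. The authors' deposited table gave 4.31 and 0.65 for g0s2, which in mammals inhibits the main triglyceride lipase of droplets, and the difference was 3.66 ± 0.555 (adjusted p = 4.8e-08) at an average of only 1.47 CPM. That average covers all samples, so g0s2 may have passed the floor through the high-fat pools, where it was high. The genes plin2 and g0s2 were the 2 called members among 10 genes of droplet coat and lipolysis. The median of the 10 differences was 0.72, against -0.03 over all genes, and 7 lay above 0. At a floor of 1 log2 CPM, which leaves out g0s2, it was 0.43. The monoacylglycerol lipase mgll (1.00), the hormone-sensitive lipase gene lipea (1.07) and cideb (1.09), of droplet and lipoprotein growth, were not called (adjusted p = 1 for each).

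A joint list of 56 genes held those that oxidise fatty acids together with targets of the receptor PPAR-alpha, and it was not split by function. In this joint list 3 genes were called higher and 0 lower, and the median difference was 0.30. Of the 56, 41 (73.2%) lay above 0, against 46.96% of all genes. Their median response in the authors' deposited table was 0.34 with high fat and -0.03 with low fat. The authors' deposited table gave cpt1b, a carnitine palmitoyltransferase that passes fatty acids into mitochondria, at 2.86 and -0.33, and the difference was 3.19 ± 0.513 (adjusted p = 5.0e-07). For hadhaa, the alpha subunit of the mitochondrial trifunctional protein, the authors' deposited table gave 2.60 and 0.25 (difference 2.35 ± 0.510, adjusted p = 0.0015). For angptl4, a secreted inhibitor of lipoprotein lipase and a PPAR target in mammals, the authors' deposited table gave 1.71 and -0.27 (difference 1.98 ± 0.506, adjusted p = 0.022). The beta subunit hadhb had a difference of 1.37 and decr1, of unsaturated fatty acid oxidation, 1.29, and neither was called (adjusted p = 0.48 and 0.70). The paralog cpt1a differed by 0.31, with an adjusted p of 1, and the receptor genes pparaa (0.04), pparab (-1.0) and pparg (-0.42) were not called either.

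Apolipoprotein genes were split between members with a clear difference and abundant members without a called one. The largest was si:dkey-7f3.15, named apoa4b.3 in RefSeq, an apolipoprotein A-IV gene, for which the authors' deposited table gave 3.58 and 0.51 (difference 3.07 ± 0.507, adjusted p = 1.0e-06). The apolipoprotein E gene apoea had 1.93 and 0.09 in the authors' deposited table, and its difference of 1.85 ± 0.506 was the smallest called (adjusted p = 0.049). Its call was lost in several other settings, with an adjusted p of 0.063 with its own implied error. That error also rests on the authors' p-values and does not carry the gene's spread between pools. The other A-IV genes zgc:112992 (1.6), zgc:194131 (1.47) and apoa4 (0.58), and the second apolipoprotein E gene apoeb (1.41), were not called. Close paralogs of this family may share reads, so the split between them is uncertain. Among 29 genes of lipoprotein assembly, 2 were called higher and 0 lower, and the median was 0.14. Of the 29, 18 (62.1%) lay above 0, against 46.96% of all genes. The main apolipoprotein B gene apobb (0.50) and mtp, which loads lipid onto it (0.27), had 95% intervals that included 0.

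Fatty acid synthesis and triglyceride synthesis showed calls in opposite directions. In the authors' deposited table elovl5, an elongase of polyunsaturated fatty acids, had 2.43 and -0.05, and the difference was 2.48 ± 0.511 (adjusted p = 5.2e-04). Malic enzyme me1, a source of NADPH, had 2.14 and -0.22 in the authors' deposited table (difference 2.37 ± 0.521, adjusted p = 0.0019). These were 2 of 28 members of the synthesis list, whose median difference was 0.01, with 0 called lower. Outside the lists, the clone-named gene si:dkey-61p9.11 (fasn2 in RefSeq) differed by 2.72 (adjusted p = 4.7e-05) and was picked after its value was seen. Of 20 triglyceride synthesis genes, 2 were called lower and 0 higher, with a median of -0.11. The authors' deposited table gave lpin1, a phosphatidate phosphatase, -1.56 and 0.36 (difference -1.92 ± 0.506, adjusted p = 0.033), and acsl4l, an acyl-CoA synthetase, -0.20 and 1.73 (difference -1.93 ± 0.512, adjusted p = 0.037). lpin1 shares its position with si:ch211-175f11.5 (-2.0), so the 2 rows may share reads.

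Krüppel-like transcription factors and a nuclear receptor gene of the bile acid axis stood among the largest higher differences. The difference of nr0b2b, a zebrafish counterpart of the mammalian repressor SHP that bile acids induce through FXR, was 5.75 ± 0.575 (adjusted p = 6.0e-20), with 5.00 and -0.76 in the authors' deposited table, at an average of 1.02 CPM. That average covers all samples, and its log2 value of 0.027 lies just above the floor. The gene may have passed the floor only through the high-fat pools, where it was high. Its SE was set at this average, so it may be too small for the lower levels in the other pools. Of 20 genes of the bile acid list, nr0b2b was the 1 called (8 above 0, median -0.13). The Krüppel-like factors klf11b and klf11a had 3.0 and 1.66 with high fat and -0.17 and -0.87 with low fat in the authors' deposited table. Their differences were 3.17 ± 0.514 (adjusted p = 6.2e-07) and 2.53 ± 0.533 (adjusted p = 7.5e-04). A Gene Ontology term naming lipid, fatty acid or lipoprotein was carried by 4 of the 31 higher genes (12.9%) and 0 of the 37 lower ones, against 290 (2.26%) of all genes tested. This count matched words in the deposited terms and missed lipid genes on both sides. Among those missed were plin2 and cpt1b on the higher side and lpin1 and acsl4l on the lower side. It therefore does not show that lipid genes were absent from the lower side.

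**Figure D2:**
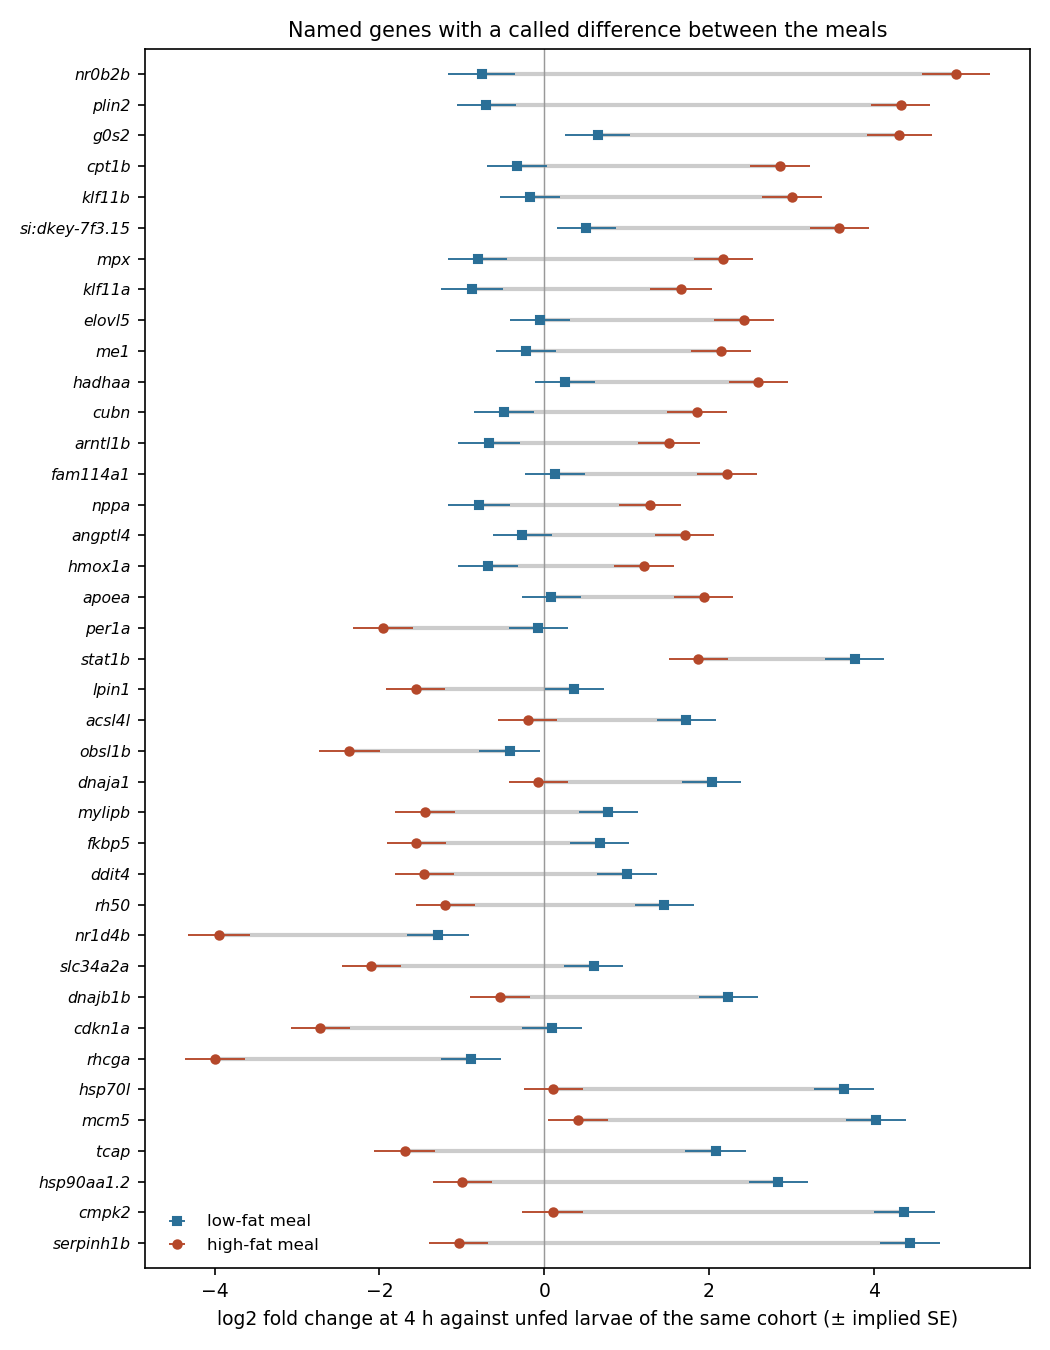
Log2 fold change at 4 h against unfed larvae of the same cohort for the named genes with a called difference, after the high-fat meal (circles) and the low-fat meal (squares). Bars are the SE implied by the authors' p-values. For plin2 the 2 values are 4.33 and -0.70, and for serpinh1b they are -1.04 and 4.44.

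Cholesterol synthesis had no called gene at 4 h, but 20 of its 22 members lay below 0, against 6804 of all 12828 genes. The median of the 22 differences was -0.53. The authors' deposited table called 3 of them lower with high fat and 0 with low fat. These were mvda, of the mevalonate steps (difference -1.75, adjusted p = 0.16), the lanosterol-forming cyclase gene lss (-1.65, adjusted p = 0.20) and the squalene epoxidase gene sqlea (-1.49, adjusted p = 0.35). The 2 most abundant members, faxdc2 (-0.24) and dhcr7 (-0.16), had intervals that included 0. At 1 h the list's median difference had been 0.54, so the median had the opposite sign.

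The change from 1 h to 4 h can be compared between the meals with no unfed larvae, since they cancel. It still uses the same 4 h pools as the 4 h difference. In this comparison 75 genes were called higher after the high-fat meal (0.585% of 12828) and 39 lower (0.304%). Of the 22 cholesterol synthesis genes, 7 were called lower and 0 higher, with a median of -1.01. Among them were sqlea (-3.30, adjusted p = 1.5e-07), ebp (-2.51, 3.4e-04), mvda (-2.45, 0.0014), lss (-2.21, 0.0055), mvk (-2.06, 0.039) and fdps (-1.92, 0.024), all enzymes of the pathway. They were named because they were called here, after their values were seen.

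Heat shock genes formed the largest called group on the lower side, with 5 of 35 members called lower and 0 higher. Over all genes, 0.288% were called lower and 0.242% higher. The median difference of the 35 was -0.34, against -0.03 over all genes. The largest was serpinh1b, the collagen chaperone Hsp47, which the authors' deposited table placed at -1.04 after the high-fat meal (adjusted p = 0.19) and at 4.44 after the low-fat meal (adjusted p = 3.6e-21). The difference was -5.48 ± 0.511 (adjusted p = 1.1e-22). For the cytosolic chaperones the authors' deposited table gave -1.0 and 2.84 for hsp90aa1.2, 0.11 and 3.64 for hsp70l, -0.54 and 2.24 for dnajb1b, and -0.07 and 2.03 for dnaja1. Their differences were -3.83 ± 0.506, -3.53 ± 0.512, -2.77 ± 0.509 and -2.11 ± 0.508 (adjusted p = 6.7e-11, 7.0e-09, 2.9e-05 and 0.0096). All 5 were called higher at 4 h after the low-fat meal and none at 4 h after the high-fat meal in the authors' deposited table. At 1 h, hsp70l (2.99), dnajb1b (2.51), hsp90aa1.2 (1.52) and dnaja1 (1.21) had been called higher there after the high-fat meal, but not serpinh1b (-0.35). After the low-fat meal all 5 had been called higher at 1 h too.

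Some heat shock rows overlap and may share reads. The rows mcm5 (-3.61), hsp70.3;hsp70l (-3.96) and hsp70.2;mcm5 (-5.38) overlap on chromosome 3 from 26878041 to 26953764. The transcripts listed for mcm5, a replication helicase gene, ranged from -5.38 to -0.03, so its own value is uncertain. The row si:ch73-341p18.7 (-2.67) overlaps dnajb1b. Chaperones of the endoplasmic reticulum had 0 of 39 members called, 30 below 0 and a median of -0.17, and at an unadjusted p under 0.05 there were 6 lower and 0 higher. The values were -0.17 and -0.07 for their 2 most abundant members, the disulfide isomerase gene pdia2 and the stress factor gene xbp1. Whether the 2 chaperone lists differ from each other was not tested.

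Several interferon-induced genes were higher after both meals at 4 h. In the authors' deposited table, of 36 members 10 were called higher with high fat and 11 with low fat. The difference was called lower in 2 and higher in 0 of the 36, with a median of -0.19 and 27 below 0. The mitochondrial nucleotide kinase gene cmpk2 had 0.10 and 4.37 in the authors' deposited table, and its difference was -4.27 ± 0.526 (adjusted p = 1.2e-12). The signal transducer gene stat1b had 1.87 and 3.77 in the authors' deposited table (difference -1.90 ± 0.510, adjusted p = 0.041, and 0.13 with its own implied error). The antiviral gene rsad2 had 3.69 and 5.49 in the authors' deposited table, and its difference of -1.80 was not called (adjusted p = 0.067). For mxa, a dynamin-like antiviral GTPase, the authors' deposited table gave 3.62 and 3.49, and for the helicase gene helz2 1.79 and 1.79. From 1 h to 4 h, 12 of the 36 were called higher after the high-fat meal relative to the low-fat meal and 1 lower, with a median of 0.68. The largest was rsad2 (7.92, adjusted p = 4.3e-51), whose meal difference had been -9.72 at 1 h. At that time the authors' deposited table called rsad2 lower after the high-fat meal (-3.45) and higher after the low-fat meal (6.27).

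Across all genes, 28 were called higher after both meals in the authors' deposited table, 29.5% of those higher after the high-fat meal and 50% of those higher after the low-fat meal, and 0 were called lower after both. Many of the 28 are interferon-induced genes, among them rsad2, stat1b, isg15, mxa, mxe, pkz and helz2. Whether the overlap reaches beyond this group was not tested. The 2 comparisons share no sample. In 23 of the 28 the difference between the meals was not called. The 5 with a call were stat1b, si:ch211-24o10.6 (-1.91) and si:dkeyp-118h9.7 (-2.88) on the lower side, and zgc:152658 (2.24) and si:dkey-40g16.6 (2.51) on the higher side. With each gene's own implied error, stat1b, si:ch211-24o10.6 and zgc:152658 lost the call. Pearson's r of the 2 responses was 0.311 across the 12828 genes, which are not independent of each other.

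Clock genes moved in both directions, with 1 of 41 called higher and 2 lower and a median difference of 0.15. In the authors' deposited table nr1d4b, of the Rev-erb repressor family, had -3.95 and -1.29, and its difference was -2.66 ± 0.531 (adjusted p = 2.6e-04). The period gene per1a had -1.96 and -0.07 in the authors' deposited table (difference -1.89 ± 0.512, adjusted p = 0.044, and 0.058 with its own implied error). The Bmal1 gene arntl1b had 1.51 and -0.67 in the authors' deposited table (difference 2.18 ± 0.531, adjusted p = 0.011). At an unadjusted p under 0.05, 12 of the 41 were higher and 5 lower, against 197 higher and 309 lower of all genes. The partner of Bmal1, clock, differed by 1.87 and lay just outside the threshold (adjusted p = 0.054). The Rev-erb gene nr1d1 (-1.52) and dbpb (-1.76), of the PAR bZIP output factors, were not called. No source used here gives the hour of day at which each group was taken.

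Glucocorticoid targets lay to the lower side, with 3 of 30 called lower, 0 higher and 27 below 0 (median -0.44). Of all 12828 genes, 37 (0.288%) were called lower and 6804 lay below 0. In the authors' deposited table ddit4, an inhibitor of mTORC1, had -1.46 and 1.00, and its difference was -2.46 ± 0.509 (adjusted p = 5.6e-04). The receptor cochaperone gene fkbp5 had -1.55 and 0.67 in the authors' deposited table (difference -2.22 ± 0.506, adjusted p = 0.0036). The third called member, per1a, is also a clock gene, and its call was lost with its own implied error. Immediate early genes had 0 of 38 called and 33 below 0 (median -0.45), with dusp1 at -0.82 and btg1 at -0.37. The cell cycle inhibitor gene cdkn1a, the called member of 28 p53 targets, had -2.72 and 0.09 in the authors' deposited table, and its difference was -2.81 ± 0.510 (adjusted p = 2.3e-05).

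Lower genes named for their size also included transporters. The list of amino acid and peptide transporters had 0 of 35 called, which lies near the 0.53% of all genes called. The ammonia transporter gene rhcga had -3.99 and -0.89 in the authors' deposited table, and its difference was -3.10 ± 0.511 (adjusted p = 1.0e-06). The sodium phosphate cotransporter gene slc34a2a had -2.10 and 0.60 in the authors' deposited table (difference -2.70 ± 0.506, adjusted p = 4.8e-05). The Rhesus family gene rh50 had -1.20 and 1.46 in the authors' deposited table (difference -2.65 ± 0.508, adjusted p = 8.6e-05), while 13 red blood cell genes had a median of -0.22 with 0 called. For mylipb, a zebrafish counterpart of the mammalian ubiquitin ligase that degrades the LDL receptor, the authors' deposited table gave -1.45 and 0.78 (difference -2.22 ± 0.508, adjusted p = 0.0038). It was the 1 called member of 11 sterol sensing genes, whose median was -0.06.

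Lysosome rich enterocytes of the distal intestine take up whole protein and break it down in a large vacuole. Of 44 genes that mark them, 38 had a difference above 0, with a median of 0.55, and 2 were called higher and 0 lower. Their median response in the authors' deposited table was 0.35 with high fat and -0.21 with low fat. The uptake receptor gene cubn had 1.85 and -0.49 in the authors' deposited table (difference 2.34 ± 0.508, adjusted p = 0.0015), and fam114a1 had 2.21 and 0.13 (difference 2.08 ± 0.513, adjusted p = 0.013). The endocytic adaptor gene dab2 (1.6), fabp6, which binds bile acids in the ileum (1.54), and tmigd1 (1.71) were not called (adjusted p = 0.19, 0.25 and 0.12). Lysosomal cathepsins such as ctsl.1 (1.35) and ctsd (0.61) were not called either. In bulk tissue, a change in the number of cells of a type and a change in RNA per cell cannot be told apart.

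Of 11 lists of cell type markers, 8 had no called member. With 0.53% of all genes called, 0 calls in a list of this size lies near the share of all genes. Hepatocyte genes (0 of 30 called, median -0.08, fetub -0.28), exocrine pancreas genes (0 of 18, median 0.02, try 0.05 and ctrb1 -0.05) and enterocyte genes (0 of 36, median -0.19, apoa4 0.58 and cyp3a65 -0.23) had medians close to 0, with single members from -1.51 to 1.31. Enteroendocrine and islet genes had 0 of 22 called and a median of 0.11, with ins at 0.17 and scg3 at 0.14. Goblet cell genes had 7 of 7 above 0 with 0 called (median 0.34), among them stard10 and foxa3 (both 0.10). Smooth muscle genes (0 of 18, median -0.19) were near 0 in acta2 (-0.01) and at -0.20 in myh11a. Red blood cell genes included rhag (-0.22) and hbae3 (-0.41), and skin, eye and nerve genes (0 of 21, median -0.04) included krt4 (0.03) and icn (-0.67).

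Skeletal muscle genes, which mark tissue outside the dissected organs, had the lowest median of all 38 lists, -0.92. Of 60 members 55 lay below 0, 2 were called lower and 0 higher, and at an unadjusted p under 0.05 there were 24 lower and 0 higher. Their median response in the authors' deposited table was -0.98 with high fat and -0.08 with low fat. Of the 60, that table called 11 lower with high fat, against 79 of all 12828 genes, and 1 higher with low fat. The sarcomere gene tcap had -1.69 and 2.08 in the authors' deposited table, and its difference was -3.77 ± 0.524 (adjusted p = 1.0e-09). The obscurin-like gene obsl1b had -2.37 and -0.42 in the authors' deposited table (difference -1.95 ± 0.526, adjusted p = 0.044, and 0.070 with its own implied error). At 1 h the list's median difference was -0.78. Of 45 collagen and matrix genes 0 were called and 35 lay below 0, with a median of -0.31, and fn1b at 0.11 and col1a1a at -0.48. The part of muscle in the other lower genes was not tested.

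Genes called higher also included mpx, nppa and hmox1a, and the cells that expressed them were not determined. The neutrophil myeloperoxidase gene mpx had 2.17 and -0.81 in the authors' deposited table, and its difference was 2.98 ± 0.506 (adjusted p = 2.9e-06). It was the 1 called gene of 26 leukocyte markers (18 above 0, median 0.22), and the lysozyme gene lyz differed by 0.06. The atrial natriuretic peptide gene nppa had 1.28 and -0.79 in the authors' deposited table (difference 2.08 ± 0.528, adjusted p = 0.020). Heart genes looked up beside it after its value was seen, myl7 (1.11), myh6 (0.81) and vmhc (-0.37), were not called. The heme oxygenase gene hmox1a, the 1 called gene of 42 in oxidative defence (median -0.12), had 1.21 and -0.68 in the authors' deposited table (difference 1.90 ± 0.512, adjusted p = 0.044). For nppa and hmox1a the authors' deposited table called neither response (adjusted p = 0.056 and 0.079 after the high-fat meal).

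**Figure D3:**
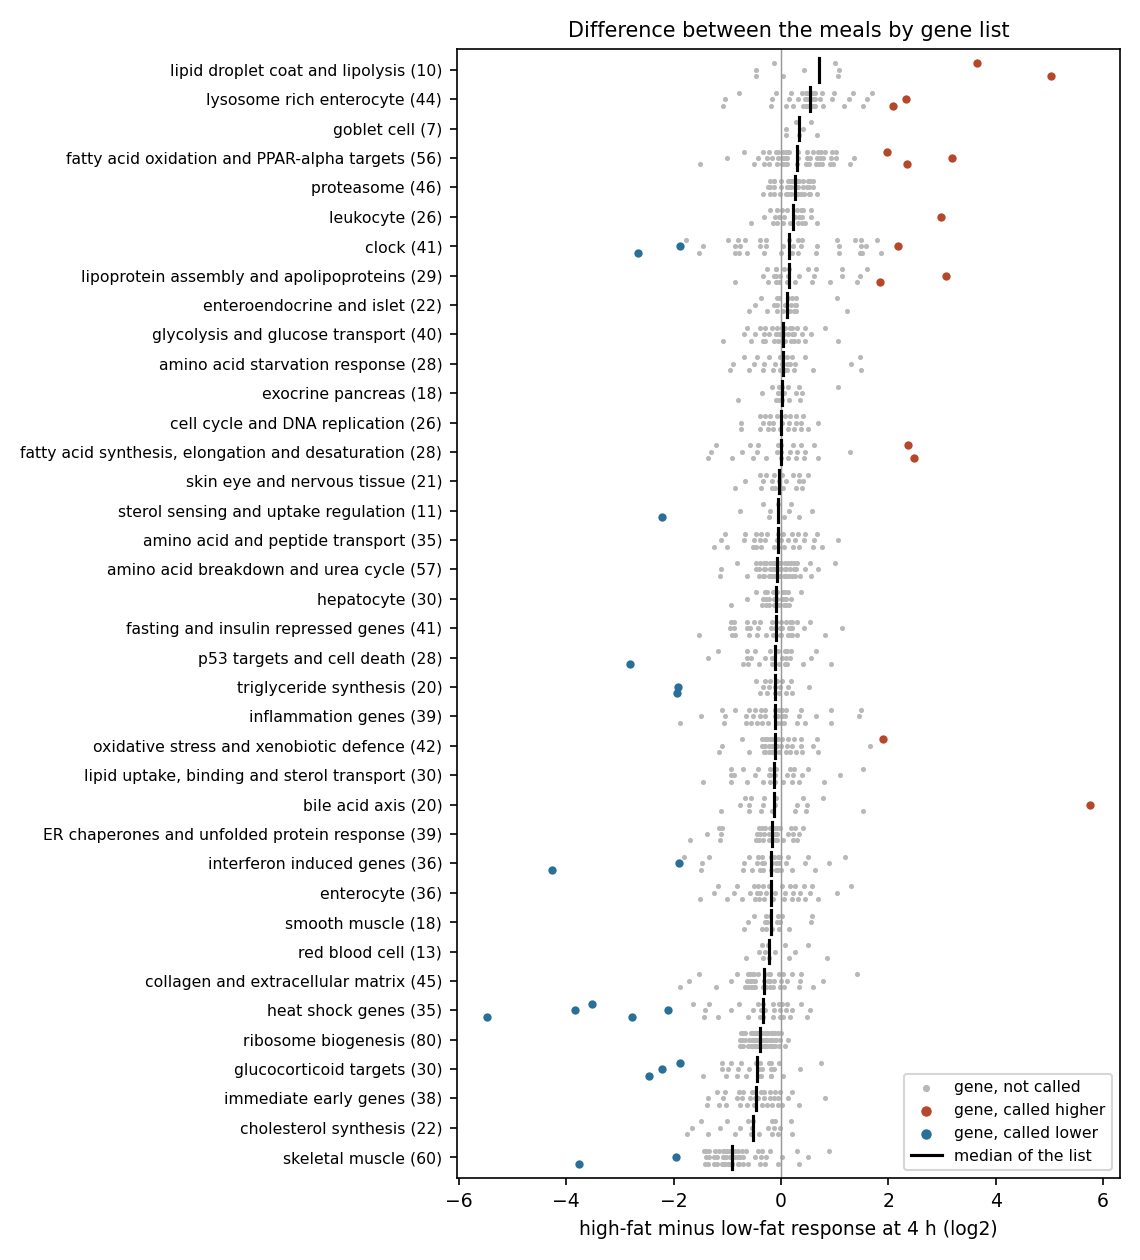
Difference between the high-fat and low-fat responses at 4 h (log2, horizontal) for the genes of 38 lists, with the number of genes past the expression floor in brackets. Points are genes, coloured where called, and black bars are list medians, from 0.72 for lipid droplet genes (0.43 at a floor of 1 log2 CPM) to -0.92 for skeletal muscle genes.

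Many metabolic groups showed no call at 4 h. Over all genes only 0.53% were called, so 0 calls in a list of this size lies near that share. Well expressed genes (at least 5 log2 CPM) had a 95% half-width of 0.993, and 1.85 was the smallest size called, so smaller differences could not be told from 0 after adjustment. Lipid uptake genes (0 of 30, median -0.13) included the intestinal and liver fatty acid binding proteins fabp2 (-0.12) and fabp10a (-0.23). Fasting genes (0 of 41, median -0.10) included the gluconeogenic pck1 (-0.58) and fbp1b (-0.02), and glycolysis genes (0 of 40, median 0.05) included gapdh (-0.23). Amino acid transport (0 of 35, median -0.06) included the peptide transporter slc15a1b (-0.39) and slc38a4 (-0.66), amino acid breakdown (0 of 57, median -0.06) included ahcy (-0.15) and glud1b (-0.13), and the amino acid starvation response (0 of 28, median 0.03) included chac1 (-0.96) and pck2 (-0.44).

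Ribosome biogenesis had 77 of 80 genes below 0, against 6804 of all 12828, with 0 called, a median of -0.39, and a narrow spread. The median response of these genes in the authors' deposited table was 0.01 with high fat and 0.39 with low fat. The nucleolar genes ddx21 and ncl differed by -0.11 and -0.37. Proteasome subunits lay on the other side, with 35 of 46 above 0, 0 called and a median of 0.27 (psmd1 0.55, psma8 0.12). Cell cycle genes (0 of 26, median 0.01, tuba8l4 0.41 and hmgb2a 0.29) and inflammation genes (0 of 39, median -0.11, c3a 0.01 and c3c -0.25) had no call. Genes within 1 list can share regulation and the same pools, so a shared sign is a description.

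Differences at 1 h stand beside those at 4 h as values, since both use the same unfed pools. For si:dkey-7f3.15 they were 3.06 and 3.07, for nr0b2b 5.62 and 5.75, for rhcga -2.98 and -3.10, and for per1a -1.98 and -1.89. In these 4 genes the meals differed about as much at both times, though the responses behind the differences could move. In the authors' deposited table rhcga went from 0.42 (high fat) and 3.41 (low fat) at 1 h to -3.99 and -0.89 at 4 h. For per1a they went from -0.73 and 1.25 to -1.96 and -0.07. For nr0b2b they went from 4.27 and -1.35 to 5.00 and -0.76, and for si:dkey-7f3.15 from 3.49 and 0.43 to 3.58 and 0.51. Of the 31 higher genes, 7 were also called with the same sign in the change from 1 h to 4 h and 1 with the other sign. Of the 37 lower genes, 9 were called with the same sign and 3 with the other. For the remaining 23 and 25 the change was not called. The change uses the same 4 h pools as the 4 h difference, so these counts are not independent of it.

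Genes whose difference grew after 1 h included cpt1b, from 0.05 to 3.19 (change 3.14, adjusted p = 3.9e-07), g0s2, from 1.70 to 3.66 (change 1.96, adjusted p = 0.048), and nppa, from -0.66 to 2.08 (change 2.74, adjusted p = 6.5e-05). The chaperones hsp90aa1.2 and hsp70l went from -0.52 and -0.20 to -3.83 and -3.53, with changes of -3.31 (adjusted p = 3.3e-08) and -3.33 (adjusted p = 4.1e-08). For dnajb1b the change was -2.22 (adjusted p = 0.0024) and for cdkn1a -2.46 (adjusted p = 3.4e-04). The difference of plin2 fell from 6.88 to 5.03 (change -1.85, adjusted p = 0.031), and that of stat1b shrank from -4.86 to -1.90 (change 2.96, adjusted p = 2.7e-06).

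**Figure D4:**
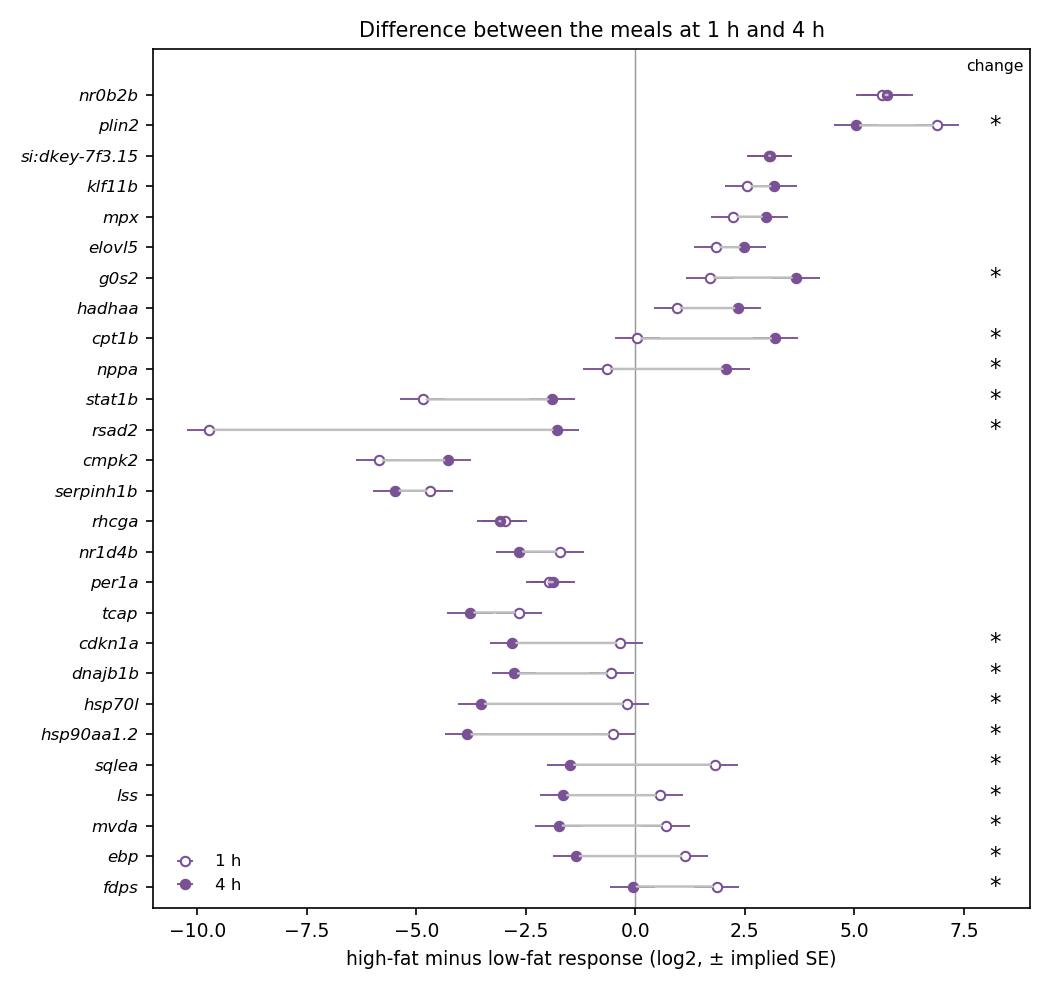
Difference between the high-fat and low-fat responses (log2, horizontal, bars SE) at 1 h (open) and 4 h (filled) for 27 genes, with stars where the change between times had an adjusted p under 0.05. The difference of cpt1b goes from 0.05 to 3.19, that of hsp90aa1.2 from -0.52 to -3.83 and that of sqlea from 1.81 to -1.49.

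The genes nearest the threshold were per1a and si:dkey-79f11.7 (adjusted p = 0.044 for both), adrb2b and apoea (0.049 for both) on the inner side. On the outer side were the chaperone cofactor gene hspbp1 (-1.86, adjusted p = 0.050), clock, zgc:112964 (2.07, 0.054) and unc93a (1.82, 0.060). The smallest called sizes were 1.85 on the higher side and 1.88 on the lower side. Across 1879 well expressed genes the median size of a difference was 0.437 of its SE, against 0.674 for a normal distribution, so the SE was wide relative to most genes. The authors' p-values rest on an error that depends on expression level and hardly on the gene. With errors 1.5 times larger, 16 genes were still called, 7 higher and 9 lower. The higher ones were led by nr0b2b, plin2 and g0s2. Of these, nr0b2b and g0s2 averaged only 1.02 and 1.47 CPM, over all samples including the high-fat pools where they were high. Their SE was set at that average and may be too small, so their place here is uncertain. The lower ones included serpinh1b, cmpk2 and the overlapping rows of mcm5 and hsp70 copies, which may share reads.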

How the data were processed

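Per the labels' protocols, poly(A) RNA from pools of 10 larvae was sequenced as reads of 50 bases. Reads were aligned with TopHat2 to build Zv9 and tested with edgeR, per the submitters' processing notes (the sources used here give no versions, counting tool or annotation). The authors deposited 1 table of 56754 transcripts with a log2 fold change, an average log2 CPM, a p-value and its adjusted value for 4 comparisons, per the file headers, and no column of single samples (0). Starts in the table count from 0, so 1 was added. The planned edgeR test on counts could not be run, and the fallback written beside it was used.

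For each symbol the transcript of highest average log2 CPM was used, at a floor of 0. This average covers all samples, so a gene near the floor may have passed it through the group where it was high. Under the floor fell 8399 symbols, and 18412 rows without a symbol were set apart. The SE of each authors' log2 fold change was the median of the fold change divided by the normal score that its p-value gives, in bins of 0.5 log2 CPM, over values with a fold change above 0.5 and a p under 0.5. For a meal difference the 2 squared errors were added, and for the change from 1 h to 4 h the 4 squared errors were added and divided by 2. The pools were prepared independently from separate crosses per the design text, but the p-values do not carry each gene's own spread between pools.

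Named genes were the 15 largest called differences in each direction with an assigned symbol and at least 1 log2 CPM, up to 6 called members of each list, or the 2 most abundant members of a list without calls. Other names were added after their values were seen. The genes, the 38 lists (1198 measured genes) and the tests were chosen with earlier results of these data known. Current names were taken from RefSeq, where 92.2% of symbols matched. Promoter and protein sequences were not analysed here. Some genes that the rule names are not reported here. Alternatives were other errors, floors, centring and ways to choose a row per gene. Python 3.11.15, numpy 2.4.6, pandas 2.3.3 and scipy 1.17.1 were used.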

Additional observations from a re-analysis of the deposited data

Results flagged for a closer look

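The responses to the meals differed at 4 h in 31 genes with a higher and 37 with a lower response to the high-fat meal, by the test of the difference itself. In the change from 1 h to 4 h, which uses no unfed larvae, the meals also differed in named genes. That change shares its 4 h pools with the difference by which these genes were chosen, so it is not independent of it. On the higher side the difference in change was 3.14 for cpt1b, 2.96 for stat1b, 2.74 for nppa and 1.96 for g0s2. On the lower side it was -4.61 for mcm5, -3.33 for hsp70l, -3.31 for hsp90aa1.2, -2.46 for cdkn1a, -2.22 for dnajb1b and -1.85 for plin2. The row of mcm5 overlaps those of hsp70 copies.

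Transcripts without a symbol were outside the comparison. Of 4575 past the expression floor, 12 were called higher and 15 lower by the same test. Some lie at the position of a called gene, such as ENSDART00000133845 (-5.36) at that of serpinh1b. Others carry no name in the table, such as ENSDART00000127563 (3.16) on chromosome 21.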

How the results depend on the processing

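The 31 higher and 37 lower calls became 7 and 9 with errors 1.5 times larger, 69 and 62 with no floor on expression, 57 and 67 with every transcript as a feature, and 184 and 282 with errors scaled by 0.649 to the observed median, an alternative chosen after seeing the data. At a floor of 1 log2 CPM, 19 genes were called higher and 33 lower. Most calls lost there were of genes under that floor, but apoea and adrb2b were still tested and lost theirs. The cause of the moves was not tested beyond their construction. With each gene's own implied error 28 and 32 were called, and 60 of the 68 calls were kept. The lost ones were apoea, stat1b, per1a, obsl1b, si:ch211-24o10.6, zgc:152658, si:dkey-79f11.7 and adrb2b. The own implied error still rests on the authors' p-values, which do not carry each gene's spread between pools. The kept calls therefore do not show that the calls hold against that spread. With the median difference subtracted 66 were kept, and with 1 row per overlapping position, also chosen after seeing the data, 58. No called difference changed sign in the alternatives run for named genes. Other errors and floors leave a difference as it is, and centring subtracts a median of only -0.026. Most of these settings could therefore not have changed the sign of a called difference. With the median subtracted, the differences of fbp1b and acta2, which were not called, went from -0.02 and -0.01 to 0.0090 and 0.014. List medians moved by over 0.1 only at the floor of 1 log2 CPM, to 0.43 for lipid droplet, 0.27 for lipoprotein, -0.23 for bile acid, -0.15 for cell cycle and -0.27 for inflammation genes. No paired analysis was possible because single samples have no values in the table, and for the same reason no replicate could be left out. The depth per pool is unknown.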

Other observations

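Called genes outside the named rule had varied functions. On the higher side were cyp26a1, which degrades retinoic acid (difference 2.80), and zgc:194112, a chemokine gene named ccl19a.2 in RefSeq (3.52). Both averaged under 1 log2 CPM (0.20 and 0.87), so they may have passed the floor through the pools where they were high. On the lower side were enpp7, the intestinal alkaline sphingomyelinase gene (-1.90), the anion exchanger gene slc26a6 (-1.89), the adrenergic receptor gene adrb2b (-1.88) and the cerebellin family gene cbln18 (-2.17). They were picked after their values were seen.

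On chromosome 15 the row next to plin2, si:ch211-24o10.6 (igldcp in RefSeq), had 3.0 with high fat and 4.91 with low fat in the authors' deposited table, a difference of -1.91, while plin2 differed by 5.03. Of the called genes 29 had several transcripts past the floor, and the range of the difference over a gene's transcripts had a median of 0.18. For slc26a6 this range was 1.38.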
